A study of Mus musculus with 2 samples.

Results

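The genes described here encode the ligands and receptors of 3 growth factor systems: the fibroblast growth factors (FGFs), the platelet-derived growth factors (PDGFs) and the vascular endothelial growth factors (VEGFs). They were chosen by symbol alone, as every numbered Fgf gene, Fgfr1 to Fgfr4 and Fgfrl1, Pdgfa to Pdgfd with Pdgfra and Pdgfrb, and Vegfa to Vegfd with Flt1, Flt4 and Kdr. The rule found 40 of the 21951 protein-coding genes of the GENCODE M21 annotation. These are 30 genes counted as ligand genes, among them 4 of FGFs that are not secreted, and 10 receptor genes. Stromal cells of mouse inguinal white fat were cultured as adipose-derived stem cells (ASCs) in medium with β-FGF, used at passage 3, and differentiated into adipocytes with IBMX, dexamethasone and insulin. Chromatin of the adipocytes was precipitated with an antibody against TET2, and 1 TET2 library and 1 input library, of chromatin without the antibody step, were sequenced. TET2 is an enzyme that oxidises 5-methylcytosine, the methyl mark on cytosine in CpG dinucleotides, to 5-hydroxymethylcytosine. Both libraries came from the same kind of culture and had no treatment that set them apart. No strain, sex, age or genotype of the donor mice stands in the labels, and a peak list holds no expression by which the adipocyte identity could be checked.

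FGFs, PDGFs and VEGFs bind receptor tyrosine kinases on the cell surface, and the activated receptors recruit adaptors that turn on the RAS to ERK and the PI3K to AKT cascades. Most FGFs act near the cell that secretes them with heparan sulfate as a cofactor, while a small endocrine group travels in the blood and needs a Klotho protein as co-receptor, and an intracellular group is not secreted and binds ion channels instead. In fat, PDGFRα marks the progenitors from which adipocytes form, VEGFA drives the growth of capillaries, and FGF21 acts on adipocytes through FGFR1 and β-Klotho.

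The deposited list holds 14103 TET2 peaks, intervals where sequenced fragments of the TET2 library exceeded the background, of 375 to 3392 bp with a median of 426 bp. Each carries the −log10 p of the peak caller, which ran from 3.07 to 335.2 with a median of 6.21. With 1 TET2 library there is no replicate error, no difference was tested, and the intervals given below cover counting error only. The list gives no reads, so the reads behind a peak are unknown. A peak was placed by its midpoint, either within 1 kb of any transcription start site (TSS) of a member, 1 to 3 kb from one, or inside the gene (the gene body) and over 3 kb from each TSS. The peak at Lep, the leptin gene that the study followed, had a −log10 p of 11.23 and serves as a yardstick.

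Sequence at the strongest promoter peaks is printed first, to show the DNA under them. The stretches lie inside the peak, are read 5′ to 3′ on the strand of the gene from the mouse genome GRCm38, and avoid untranslated exons. CpG dinucleotides, the substrate context of TET2, are in capitals.
Fgf12, chr16:28444992-28445191, minus strand: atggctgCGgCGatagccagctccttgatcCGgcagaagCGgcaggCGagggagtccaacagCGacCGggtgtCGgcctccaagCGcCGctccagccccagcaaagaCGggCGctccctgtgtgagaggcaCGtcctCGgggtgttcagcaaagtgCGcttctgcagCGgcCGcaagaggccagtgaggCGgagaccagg
Vegfc, chr8:54077779-54077925, plus strand: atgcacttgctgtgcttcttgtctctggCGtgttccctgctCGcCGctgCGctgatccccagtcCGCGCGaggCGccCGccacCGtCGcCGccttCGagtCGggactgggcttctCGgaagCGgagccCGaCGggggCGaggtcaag
Fgfrl1, chr5:108695076-108695275, plus strand: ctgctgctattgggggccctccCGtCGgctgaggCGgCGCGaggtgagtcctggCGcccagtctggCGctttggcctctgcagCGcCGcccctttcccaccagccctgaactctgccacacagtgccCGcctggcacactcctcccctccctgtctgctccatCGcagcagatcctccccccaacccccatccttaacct
Fgf14, chr14:124192322-124192521, minus strand: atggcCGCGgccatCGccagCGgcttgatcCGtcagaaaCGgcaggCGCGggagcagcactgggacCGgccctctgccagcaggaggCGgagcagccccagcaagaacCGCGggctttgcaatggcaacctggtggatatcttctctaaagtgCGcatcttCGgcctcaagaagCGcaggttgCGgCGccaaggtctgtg
Fgfr2, chr7:130265401-130265600, minus strand: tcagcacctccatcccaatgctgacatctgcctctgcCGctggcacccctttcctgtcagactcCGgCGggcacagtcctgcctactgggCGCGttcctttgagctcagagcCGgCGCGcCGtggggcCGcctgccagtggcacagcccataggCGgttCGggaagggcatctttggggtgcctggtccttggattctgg

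The Vegfc stretch is the coding part of exon 1, from its start codon, and held 19 CpGs in 147 bases. The stretches of Fgf12 and Fgf14 open with the start codons of these related genes and held 18 and 17 CpGs in 200 bases. The Fgfrl1 stretch runs from exon 2 into intron 2 and held 11, and the Fgfr2 stretch, in intron 1, held 12.

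The Pdgfra peak lies from end to end in sequence that an untranslated exon of one of the gene's transcripts covers. From it, 30 bases around a GC box, the GGGCGG motif of SP and KLF factors, are shown from chr5:75153298-75153327 on the plus strand, with the motif in capitals.
Pdgfra GC box: gctagaagcctcGGGCGGaatccgcagtgc

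TET2 peaks lay within 1 kb of a TSS at 15 of the 40 genes, 37.5% (exact 95% binomial interval 22.7 to 54.2%), against 24.6% of all protein-coding genes. The 1 to 3 kb class held 2 of the 40, 5.00% (0.611 to 16.9%), against 5.05%. Gene bodies held peaks at 10 of the 40, 25.0% (12.7 to 41.2%), against 13.0%. In any of the 3 classes, 23 of the 40 had a peak, 57.5% (40.9 to 73.0%), against 36.4%. The 23 genes had 53 distinct peaks, of which 17 were within 1 kb, 2 at 1 to 3 kb and 34 in gene bodies. Of the 34, 22 were assigned to Fgfr2 alone, by a gene model described below.

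**Figure D1:**
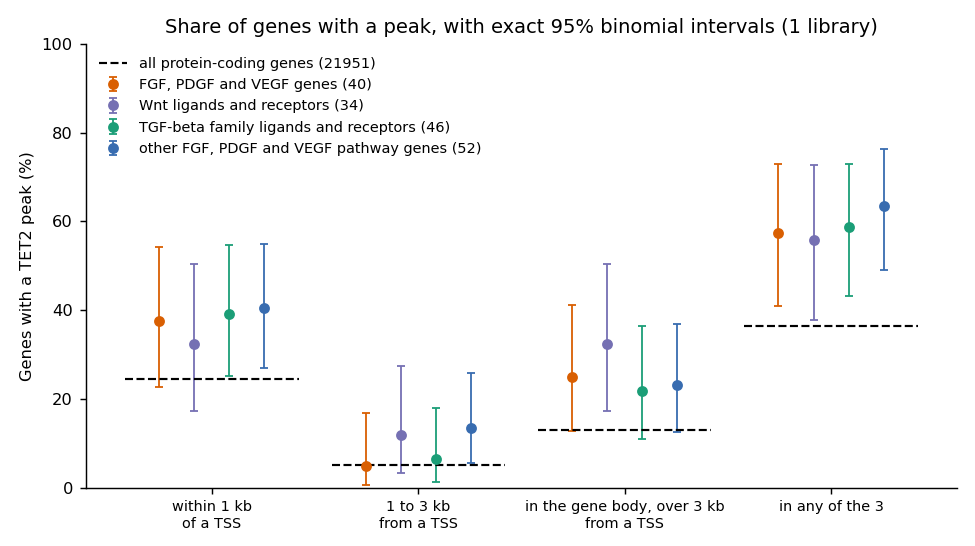
Share of genes with a TET2 peak (%, vertical axis) in each class of distance from a TSS, as points with exact 95% binomial intervals for 4 gene lists, and dashed lines for the 21951 protein-coding genes. The 40 FGF, PDGF and VEGF genes lie at 37.5% within 1 kb of a TSS, above the dashed line at 24.6%, which their interval includes. In the 1 to 3 kb class they lie at 5.00%, beside its line at 5.05%. In any of the 3 classes their interval of 40.9 to 73.0% does not include the line at 36.4%. Their median gene length was 29219 bp, against 17403 bp over coding genes, and what length adds to the share was not tested.

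Receptor genes had a TSS peak at 6 of 10, 60.0% (26.2 to 87.8%), and ligand genes, intracellular FGFs included, at 9 of 30, 30.0% (14.7 to 49.4%). The intervals of these shares overlap, and 24.6% of all protein-coding genes had such a peak.

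Among the secreted FGF ligands, 5 of 18 had a peak within 1 kb of a TSS, 27.8% beside 24.6% of all protein-coding genes. Fgf16, which encodes a ligand of the FGF9 subfamily, had a −log10 p of 6.90, with the midpoint 523 bp downstream of the TSS in exon 1 and 274 coding bases under the peak (chrX:105764521-105765083). Fgf20, of the same subfamily, had 6.12 at 149 bp upstream of a TSS that GENCODE lists and RefSeq does not (chr8:40308201-40308759). The RefSeq TSS of Fgf20 lies 21527 bp from that midpoint. Fgf9 itself, the third gene of the subfamily, had no peak in any class and its nearest lay 244208 bp from a TSS.

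Fgf18, a ligand of the FGF8 subfamily with a known part in bone and lung growth, had a peak of 6.21, the median of the list, 95 bp upstream of its TSS (chr11:33147184-33147807). It was the GC-richest of the 17 TSS peaks at 76.3%, and 2 further peaks of 6.90 and 7.37 lay in introns of the gene. Fgf8 had none, the nearest being 6496 bp from a TSS. Fgf17, also of that subfamily, had a peak of 5.19 over its last exon, exon 5 of 5, with 291 coding bases, and this midpoint lay 783 bp from a TSS of the neighbour Dmtn (chr14:70636605-70637057).

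Fgf4 and Fgf5 of the FGF4 subfamily had low values. Fgf4, a growth factor of the early embryo, had 5.78 at 117 bp downstream, over 328 coding bases of exon 1 (chr7:144861000-144862007). Fgf5, which ends the growth phase of hair, had 4.73 at 304 bp upstream (chr5:98253693-98254067), the lowest of the 17 TSS peaks. Fgf6 had no peak of its own, and the nearest, 64804 bp away, was that of its neighbour Fgf23.

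The FGF1 and FGF7 subfamilies had no peak in any class, 0 of 2 and 0 of 4 genes, beside 36.4% of all protein-coding genes. The exact intervals of these shares reach 84.2% and 60.2%. These subfamilies include Fgf1 and Fgf2, the acidic and basic FGFs, Fgf7 and Fgf10, whose products signal mainly from mesenchyme to epithelium, and Fgf3 and Fgf22. The nearest peak to a TSS was 63597 bp away for Fgf1, 14776 bp for Fgf2, 176008 bp for Fgf7 and 346101 bp for Fgf10. For Fgf22 it was 46045 bp, and for Fgf3 22908 bp, where the peak was the one at the start of its neighbour Fgf4. The peak nearest to Fgf2 lay close to a TSS of Nudt6, the gene on the opposite strand of the Fgf2 locus.

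None of the 3 endocrine FGF genes had a peak within 1 kb of a TSS, beside 24.6% of all protein-coding genes. The exact interval for 0 of 3 reaches 70.8%. Fgf21, the fasting hormone, had a peak of 9.02 at 1962 bp upstream (chr7:45617244-45617660), and that midpoint lay 154 bp from the TSS of the neighbour Fut1. Fgf23, the phosphate hormone of bone, had a peak of 5.65 over its last exon, exon 3 of 3, with 273 coding bases and 7488 bp from the TSS (chr6:127080203-127080577). Fgf15, the bile acid hormone of the gut, had none, with 18987 bp to the nearest. Promoter CpG ratios, the observed over the expected number of CpGs, were in the lowest of 4 equal classes of coding genes for Fgf21 and Fgf23. In that class 2.10% of coding genes had a TSS peak.

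Of the 4 intracellular FGF genes, Fgf12 and Fgf14 had TSS peaks, and in both the peak lay on an alternative first exon. The Fgf12 peak of 11.44 spanned all 199 coding bases of a first exon, with the midpoint 976 bp from the nearest TSS (chr16:28444835-28445364). The Fgf14 peak of 8.51 spanned all 193 coding bases of the first exon of the transcript ENSMUST00000026631, 380 bp from its TSS (chr14:124192288-124192756). These coding stretches match at 140 of 205 aligned positions, 68.3%, and are contained in the sequences printed above. The matching first exons of Fgf11 and Fgf13, with 61.5% and 61.2% identity to that of Fgf14, had no peak over them.

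The other starts of the intracellular genes differed. Fgf12 had a second TSS peak, of 5.74, over another first exon, 208 bp from its TSS (chr16:28564466-28565021), while the coding start at 28753068 was 32592 bp from any peak. The longer Fgf14 transcript starts at 124677127, with its nearest peak 74293 bp away. Inside its gene Fgf12 had peaks of 7.91, 4.0 and 8.51, Fgf14 had 1 of 4.12 and Fgf13 had 1 of 5.13. The Fgf12 peak of 7.91 and the Fgf13 peak lay wholly in repeat-masked sequence, and how far reads map there uniquely was not tested. Fgf11 had no peak, and its nearest lay 23378 bp away.

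No PDGF ligand gene had a peak within 1 kb of a TSS, 0 of 4 beside 24.6% of all protein-coding genes. The exact interval for 0 of 4 reaches 60.2%. Pdgfa, the main ligand of PDGFRα, had a gene body peak of 9.50 at its other end, over 500 bases of the untranslated part of the last exon, exon 7 of 7 (chr5:138976543-138977042). Pdgfb, Pdgfc and Pdgfd had none, and their nearest peaks lay 18715, 674550 and 244356 bp from a TSS. The peak nearest to a Pdgfd TSS had a −log10 p of 3.16, close to the lowest value of the list, 3.07. With RefSeq transcripts in place of GENCODE, Pdgfd had a gene body peak.

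Vegfc and Vegfa had TSS peaks among the VEGF ligand genes. Vegfc, the lymphatic growth factor, had 10.68 at 123 bp downstream, over the 147 coding bases of exon 1 printed above (chr8:54077700-54078104). Vegfa, the main factor of capillary growth, had the second lowest value of the TSS peaks, 5.21 at 159 bp upstream of the nearest TSS, over 600 coding bases of exon 1 of its longest coding transcript (chr17:46031093-46031938). Vegfb, whose product binds FLT1, had a peak of 10.71 in the 1 to 3 kb class, 1765 bp from its nearest TSS and 2276 bp from the start of its main transcript, over exon 6 of 7 with 207 coding bases (chr19:6985158-6985592). Vegfd had none, and its nearest lay 254829 bp from a TSS.

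FGF receptor genes had a TSS peak at 4 of 5, with Fgfr4 as the exception, beside 24.6% of all protein-coding genes. With RefSeq transcripts in place of GENCODE, Fgfr4 had a TSS peak and Fgfr2 had none. Fgfrl1, the receptor without a kinase domain, had 10.37 at 674 bp downstream of the TSS (chr5:108694929-108695423). Fgfr2 had 7.77 at 690 bp downstream (chr7:130265069-130265933). Fgfr3 had 7.56 at 352 bp upstream of one of its inner TSSs (chr5:33723177-33723664), in intron 2 of its main transcript, the coding transcript with the most coding bases, and the TSS of G630022F23Rik was nearer, at 249 bp.

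Fgfr1, the receptor through which FGF21 acts on fat cells, had 6.47 at 152 bp downstream, with untranslated bases of exon 1 under the whole peak (chr8:25518860-25519234). Fgfr1 has 18 TSSs in GENCODE, and the 7 within 1 kb of this midpoint lie together at the start of the main transcript. Fgfr4 had a gene body peak of 6.59 over exon 7 of 18, with 191 coding bases (chr13:55159745-55160151).

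Pdgfra had the largest −log10 p of all member peaks, 11.95, rank 444 of the 14103 peaks and above the peak at Lep. It lay 266 bp upstream of the TSS of a retained-intron transcript, 385 bp downstream of the coding TSS at 75152935, and 1014 bp downstream of the start of the main transcript, in intron 1 of 23 exons (chr5:75153087-75153554). The start of the main transcript, at 75152306, had a CpG ratio of 0.341 in the 500 bp on each side, against 0.963 at the TSS at 75152935. Pdgfrb, the other PDGF receptor gene, had no peak, and its nearest lay 9270 bp from a TSS.

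Of the 3 VEGF receptor genes, 1 had a TSS peak, 33.3% (0.840 to 90.6%) beside 24.6% of all protein-coding genes. That was Flt4, the receptor of VEGFC on lymphatic endothelium, with 5.32 at 423 bp downstream in exon 1 (chr11:49609441-49609932). Flt1 had a gene body peak of 7.05, with 176 coding bases under it and the midpoint in intron 2 (chr5:147699836-147700228). Kdr, the main VEGFA receptor on endothelium, had none, and the nearest lay 205630 bp from its TSS. The labels name no endothelial cells in this culture, and whether these receptors were expressed was not measured.

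**Figure D2:**
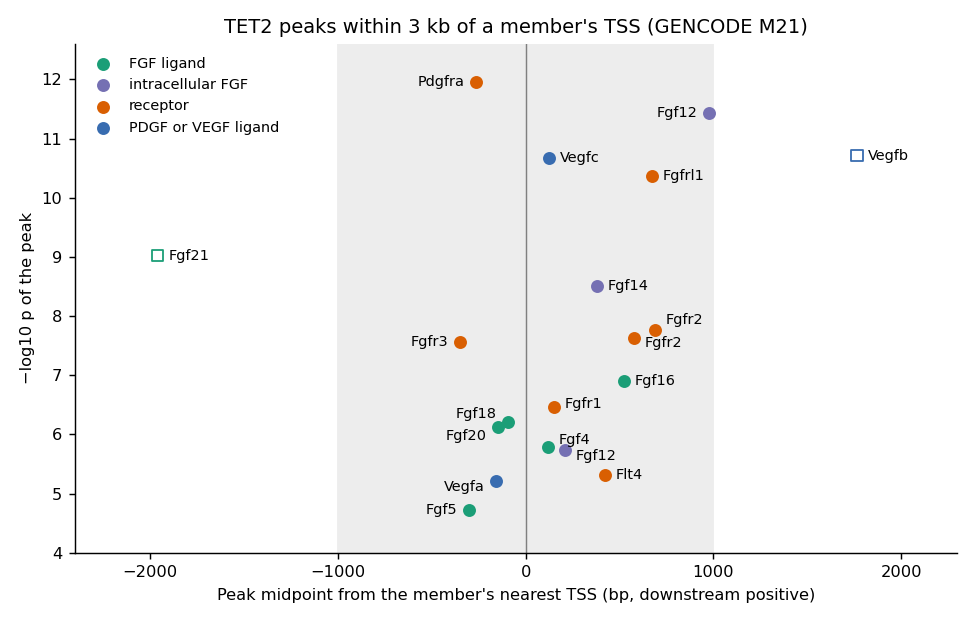
The −log10 p of each TET2 peak (vertical axis) against the distance of its midpoint from the nearest TSS of the member (horizontal axis, bp, downstream positive), coloured by role, with circles for peaks within 1 kb (shaded) and open squares for those at 1 to 3 kb. Pdgfra at 11.95 and the upper Fgf12 peak at 11.44 stand highest, and 11 of the 17 circles lie downstream of the TSS.

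Of the 17 TSS peaks, 11 had the midpoint downstream of the nearest TSS of the member and 6 upstream, with a median of 152 bp and a range of −352 to 976 bp. Coding bases of the member lay under 11 of the 17 and untranslated bases under 14. A TSS of another gene was within 1 kb of 4, and for 15 the nearest TSS of any gene was the member's own. The second TSS peak of Fgfr2 and the peak of Fgfr3 were the exceptions.

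The TSS peaks of the members had a median −log10 p of 6.90, beside 6.83 over all peaks within 1 kb of a coding TSS. GC content was 65.6% beside 66.1% and the CpG ratio 0.795 beside 0.789. The median values of the members were thus close to those of promoter peaks at large. Of the 53 member peaks, 2 had a −log10 p above that of the peak at Lep, those of Pdgfra and Fgf12.

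**Figure D3:**
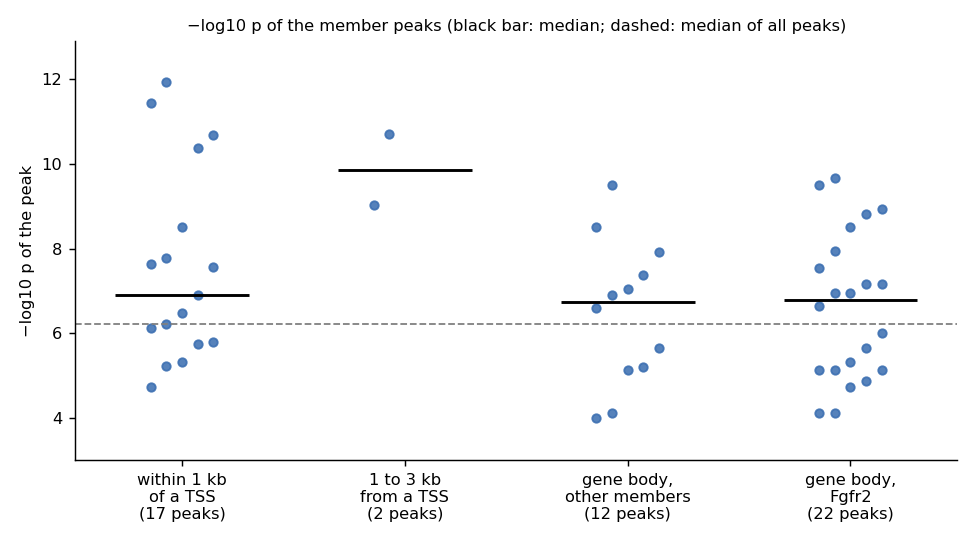
The −log10 p (vertical axis) of the 53 member peaks in 4 classes, each point 1 peak, with black bars at the medians and a dashed line at 6.21, the median of all peaks. The TSS peaks have a median of 6.90, the 12 gene body peaks outside Fgfr2 6.75 and the 22 of Fgfr2 6.79.

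The CpG ratio of the promoter, the highest among the windows of 500 bp on each side of the gene's TSSs, had a median of 0.868 in the 15 members with a TSS peak and of 0.641 in the 25 without. Over all protein-coding genes the medians were 0.788 and 0.493. In the top of 4 equal classes of coding genes by this ratio 8 of the 12 members had a TSS peak, where 44.2% of coding genes did. The next class held 6 of 15 members, where 35.5% of coding genes did, and the one after it 1 of 10, where 16.4% did. That 1 was Fgf14, with a ratio of 0.488 at the TSS that had no peak near it and of 0.454 at the TSS with the peak. None of the 3 members in the lowest class had a TSS peak. Members of the top class with no TSS peak were Fgf9, Fgf13, Flt1 and Pdgfa.

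**Figure D4:**
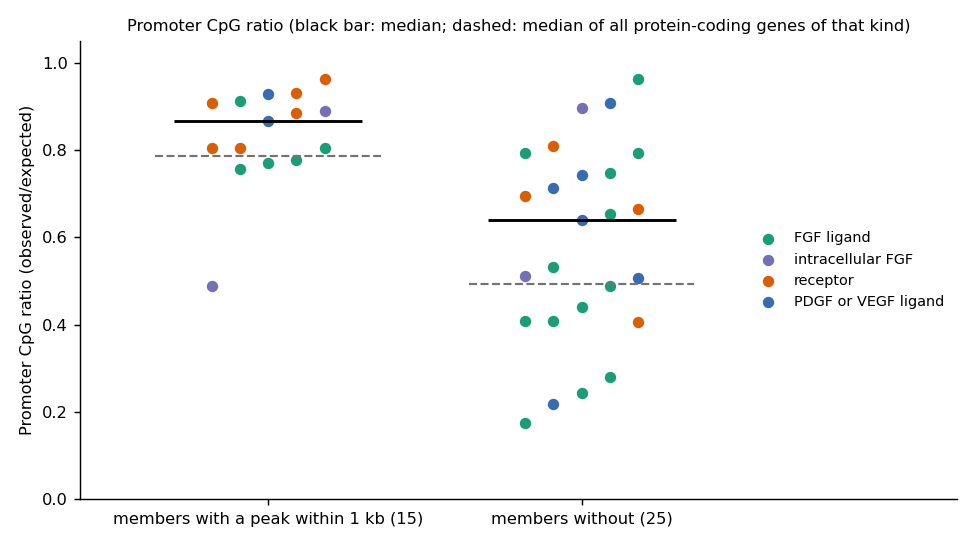
Promoter CpG ratio (observed over expected, vertical axis) of the 15 members with a TET2 peak within 1 kb of a TSS and the 25 without, each point 1 gene coloured by role, with black bars at the member medians and dashed lines at the medians of all protein-coding genes of each kind. The members with a peak have a median of 0.868 and all but Fgf14, at 0.488, lie at 0.756 or higher, while those without spread from 0.175 to 0.963. The ratio of a gene is the highest over its TSSs, which need not be the TSS with the peak.

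Genes with more TSSs had a peak near one more often across the annotation, from 14.5% of coding genes with 1 TSS to 36.5% of those with 6 to 58. The members did not follow this rise in order: it was 2 of 6 with 1 TSS, 5 of 12 with 2 (16.5% of coding genes), 2 of 12 with 3 to 5 (26.0%) and 6 of 10 with 6 or more. Longer genes held more gene body peaks, 0.838% in the shortest of 4 equal classes of coding genes and 32.8% in the longest. The longest class held 15 of the 40 members, of which 5 had a gene body peak. Of the 8 members in the shortest class only Fgf17 had one.

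Motifs were counted on both strands within 100 bp of each peak midpoint, and a match describes letters, not binding. Matches of different patterns may overlap and were counted for each. The GC box GGGCGG was in 6 of the 17 TSS peaks, 35.3%, beside 47.0% of all peaks within 1 kb of a coding TSS. The AP-2 pattern GCCNNNGGC was in 8, 47.1%, beside 27.9%. The C/EBP pattern TTNNGCAA was in 1, that of the Fgf12 peak of 11.44, 5.88% beside 2.55%. The hypoxia response core ACGTG was in 3, 17.6% beside 17.3%, and these were Fgf5 and both Fgf12 peaks, with none in the Vegfa window. The STAT pattern TTCNNNGAA was in 1, 5.88% beside 2.46%. Counts this small leave wide intervals, and no share was tested.

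In the RefSeq promoter table of GRCm38, 250 bases before to 50 after the start, 31 members have an entry, 12 of them with a TSS peak. The GC box was in 10 of the 12 and in 11 of the 19 without a TSS peak, beside 38.2% of 27025 promoters. ACGTG was in 3 of the 12, Fgfr2, Fgfrl1 and Vegfa, and in 4 of the 19, beside 21.8% of promoters. TTNNGCAA was in 2 of the 12, Pdgfra and Vegfc, and in 3 of the 19, beside 12.2%. GCCNNNGGC was in 4 of the 12 and 6 of the 19, beside 18.5%. TTCNNNGAA was in 1 of the 12, Fgf12, and 1 of the 19, beside 9.55%.

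Fgfr2 needs its own account, since GENCODE M21 gives it 2960900 bp, rank 2 among coding genes. Only 1 of its 27 transcripts, ENSMUST00000124096, runs that far, and the others reach no further than 130266263. The RefSeq gene is 104358 bp, chr7:130162451-130266808 on the minus strand. Of the 24 peaks assigned to Fgfr2, 1 lay inside the RefSeq gene, the TSS peak of 7.77, 1307 bp from the RefSeq TSS and in intron 1 of the main transcript. The other 23 lay upstream, 102.7 to 2856.0 kb from that TSS.

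Of these 23 peaks, 13 were within 1 kb of a TSS of another gene and 20 had the midpoint inside another protein-coding gene. They include peaks at the starts of Ate1, Tacc2, Lhpp, Ikzf5 and Fam53b, and the strongest, 9.66, was 57 bp from a Tacc2 TSS. The second TSS peak of Fgfr2, 7.63 at the start of the long transcript (chr7:133122572-133122974), was 158 bp from a TSS of Ctbp2. The extension holds 29 other coding genes, 11 of them with a TSS peak. Without Fgfr2 the gene body share was 9 of 39, 23.1% (11.1 to 39.3%).

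**Figure D5:**
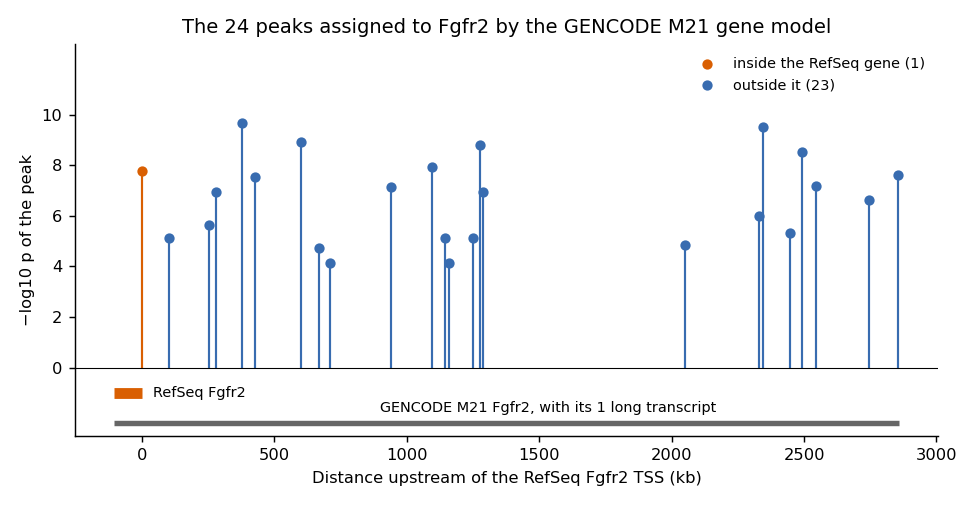
The −log10 p (vertical axis) of the 24 peaks assigned to Fgfr2 against their distance upstream of the RefSeq TSS (horizontal axis, kb), with the RefSeq and the GENCODE M21 gene drawn below as bars. The 1 peak inside the RefSeq gene sits at its start with 7.77, and the other 23 are spread over the extension to 2856.0 kb.

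The rest of the pathway was taken as a list of 52 genes for co-receptors, heparan sulfate proteoglycans, adaptors, the cascades and their inhibitors. A TSS peak was found at 21 of the 52, 40.4% (27.0 to 54.9%), close to the 37.5% of the ligand and receptor genes. Over all protein-coding genes the share was 24.6%. Pgf, the placental member of the VEGF family, had 11.28, a value above all but Pdgfra and Fgf12 among the members. Fgfbp1 and Fgfbp3, which encode extracellular carriers of FGFs, had none.

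Of the 4 co-receptor genes, Kl, which encodes α-Klotho, had a TSS peak of 6.47, and Klb, which encodes the β-Klotho that FGF21 needs, had no peak in any class. Nrp1 and Nrp2, the co-receptors of VEGF, had no TSS peak. Of the 6 proteoglycan genes, Sdc1 had 7.34, Sdc4 6.21 and Hspg2 4.95. Adaptors that receptors recruit had TSS peaks at 4 of 10 genes, beside 24.6% of all protein-coding genes. They had a peak in any class at 7 of 10, beside 36.4%. The TSS peaks were those of Sos2 with 8.46, Frs2 with 6.12, Grb2 with 6.01 and Gab1 with 5.74.

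In the RAS to ERK cascade, TSS peaks were found at Map2k2 with 11.21, at Hras with 9.94 and at Map2k1 with 4.73. Both MEK genes, Map2k1 and Map2k2, thus had one. PI3K and AKT genes had them at 4 of 6, Pik3ca with 7.40, Pik3r1 with 6.62, Pik3r2 with 6.28 and Akt2 with 5.13. The share over all protein-coding genes was 24.6%.

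Feedback inhibitors of the receptors had TSS peaks at 3 of 10, Spred2 with 8.50, Il17rd with 7.53 and Dusp4 with 5.77. This share of 30.0% was near the 24.6% of all protein-coding genes. The Sprouty genes listed, Spry1, Spry2 and Spry4, had none within 1 kb. Nor did the 3 genes of ETS factors that ERK signalling induces, Etv1, Etv4 and Etv5.

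For 2 other families of ligands and receptors placed the same way, TSS peaks were at 11 of 34 Wnt genes, 32.4% (17.4 to 50.5%), and at 18 of 46 TGF-beta family genes, 39.1% (25.1 to 54.6%). Gene body peaks were at 32.4% and 21.7% of them. Over all protein-coding genes the shares were 24.6% for TSS peaks and 13.0% for gene body peaks. The intervals of both families overlap those of the FGF, PDGF and VEGF genes, and the differences were not tested.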

How the data were processed

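TET2 ChIP-seq was analysed in adipocytes differentiated from mouse ASCs, as 1 immunoprecipitated and 1 input library. Per the paper's methods, reads were quality-filtered and aligned by bowtie1. Peak calling used MACS2 (2.1.0 in the submitters' processing notes), and the authors deposited 1 list of peaks, with the chromosome, start and end of each peak as coordinates and its −log10 p. The peak caller's p threshold is given as 1e-05, yet 2182 deposited peaks have a −log10 p under 5. The paper's methods name GRCm39 and the submitters' notes mm10. All deposited intervals fall within the chromosomes of GRCm38 (mm10) and no midpoint on an unsequenced base. That build was used and no coordinate was converted. GRCm39 was not tried, so these checks do not tell the builds apart, and every distance from a TSS rests on this choice. The paper's reporting summary states the yield as a data volume only. Read totals of each library are not given in the sources used here, so the precision of single peaks cannot be stated. The input library was not analysed on its own.

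Genes and TSSs were taken from GENCODE M21, with RefSeq of the same build as an alternative, and each peak was placed by its midpoint within 1 kb of a TSS, 1 to 3 kb from one, or in the gene body. GC content, CpG ratio and repeat-masked share were read from the genome under each peak, and motifs within 100 bp of the midpoint. Shares have exact (Clopper-Pearson) 95% binomial intervals. First coding exons were compared by global pairwise alignment. The placement was tested on simulated data, where 600 of 600 peaks fell in the right class. The simulation held no gene with several TSSs and no overlapping genes, so it does not cover gene models such as that of Fgfr2. Genome sequence was read with samtools 1.23.1 and pysam 0.24.0, tables with pandas 2.3.3 and numpy 2.4.6, intervals came from scipy 1.17.1, and figures from matplotlib 3.10.9, all under Python 3.11.15.

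The members and lists were chosen with earlier results of these data known, so nothing here is an independent test. Every member with a peak in any class is described, those with none are named, and of the pathway list the genes with a TSS peak are named, apart from some that are not reported here. Genes of that list without a TSS peak were named after their values were seen. Of the listed pathway symbols, 1 is not a protein-coding gene of the annotation and was left out. Sequences are shown for the genes of the 6 largest −log10 p among TSS peaks. Alternatives were other TSS sets, any overlap in place of the midpoint, nearest gene, thresholds on p, other motif windows and, added after seeing the data, the removal of peaks at least 80% repeat-masked.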

Additional observations from a re-analysis of the deposited data

How the results depend on the processing

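Of 23 alternative values, 18 stayed within 1.5 times the reported count and 5 did not. The number of genes with a peak within 1 kb of a TSS was 15 as reported. It was 14 with RefSeq transcripts and 14 with the nearest gene of any kind. At a p of at most 1e-05 it was 14, where 22.1% of coding genes had one. It was 9 with only peaks above the median −log10 p, where 15.3% of coding genes had one. RefSeq lost Fgf20 and Fgfr2 and gained Fgfr4, the nearest-gene rule lost Fgfr3, and the p threshold lost Fgf5. The 1 to 3 kb class, 2 as reported, held 4 with RefSeq, where it gained Fgf23 and Fgfr2, and 1 with the nearest-gene rule, where Fgf21 was lost. Gene bodies, 10 as reported, held 6 with only peaks above the median, where 6.75% of coding genes had one. At a p of at most 1e-05 they held 9, where 11.2% of coding genes had one. They held 8 with RefSeq, which lost Fgf23, Fgfr2 and Fgfr4 and gained Pdgfd, and 9 without repeat-masked peaks, which lost Fgf13. Among the 53 member peaks, a GC box was in 18 within 100 bp of the midpoint, 34.0% beside 26.6% of all peaks. Of the 18, 7 were gene body peaks of Fgfr2. The count was 12 within 50 bp and 28 within 250 bp, since a longer window holds more sequence. No paired analysis was possible because no result compares the TET2 and the input library. With 1 TET2 library, no peak could be checked in a replicate, and the absence of a peak says only that none was called at the depth of this library.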

Other observations

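Members that lie beside one another on a chromosome shared their peaks unevenly. Fgf3, Fgf4 and Fgf15 sit in 1 stretch of chromosome 7, where Fgf4 had a peak at its start and the others none in any class. On chromosome 6, Fgf23 had a peak in its last exon while its neighbour Fgf6 had none.

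Of the 52 pathway genes, 33 had a peak in any class, 63.5% (49.0 to 76.4%), beside 36.4% of all protein-coding genes. Of these 33, 21 had a TSS peak and 12 had a peak only in a wider class. The largest −log10 p of 7 of the 12 lay under the list median of 6.21, from Sdc2 with 4.12 to Spred3 with 5.98. Frs3, an adaptor of FGF receptors, had a peak of 13.62 at 1 to 3 kb, above every peak of the ligands and receptors. Sos1, an exchange factor for RAS, had peaks at 1 to 3 kb and in its gene body, with a largest −log10 p of 11.49. Spry4, an inhibitor of the cascade, had 9.20 in its gene body, Gpc1, a heparan sulfate proteoglycan, 7.77 at 1 to 3 kb, and Plcg2, a phospholipase, 7.34 in its gene body. These genes were named after their values were seen, and the values have no replicate.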
